A study of Caenorhabditis elegans with 2 samples.

Results

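The fkh-7 gene and 9 further forkhead genes of Caenorhabditis elegans, fkh-2, fkh-3, fkh-4, fkh-5, fkh-6, fkh-8, fkh-9, fkh-10 and lin-31, were examined for chromatin peaks of DAF-16, itself a forkhead protein. The 10 genes were selected on earlier results of these data, in which fkh-7 held several of the strongest peaks inside introns, and they are 10 of 19973 nuclear protein-coding genes. The peaks of fkh-7 below are therefore a description, and no test was made with them. For each gene every peak summit was taken from 5000 bp upstream of the gene to 500 bp past its end, a stretch called the gene window.

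Peaks came from chromatin immunoprecipitation with an antibody against GFP, in whole L4 larvae (hermaphrodites) of the strain ZM7247, collected 54 hours after synchronization as starved L1 larvae. All animals carried daf-16(mu86), the reduced-function insulin receptor allele daf-2(e1370) and the transgene hpSi4 (Pmyo-3 GFP::daf-16a), so the tagged DAF-16a was driven by the promoter of the body wall muscle myosin gene myo-3. Another label describes the tag as GFP-FLAG and C-terminal, which differs from that genotype. The 2 biological replicates, from 1 strain, formed the only group, and no control library or second genotype was analysed here. In whole animals, strong binding in few cells and weak binding in many cannot be told apart.

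The deposited lists held 29977 nuclear candidate peaks called on the pooled replicates, 26899 in replicate 1 and 25540 in replicate 2. A candidate below is one of the pooled list unless a replicate is named. A further list held the 2540 nuclear peaks that passed the authors' irreproducible discovery rate (IDR) threshold, named IDR peaks here. The signal of a peak is the value of the authors' peak caller, whose scale is not given in the sources used here, so it ranks peaks within 1 list and has no SD. The lists hold no read counts, so depth is unknown. As a check of the tissue, all 3 body wall muscle marker genes, myo-3, unc-54 and unc-15, had an IDR peak in their windows, with top signals of 865, 217 and 74.2. None of the 3 intestinal (ges-1, elt-2, vit-2), 3 neuronal (rgef-1, unc-119, snb-1) and 1 pharyngeal muscle marker (myo-2) had one. Only 17.5% of all nuclear protein-coding genes had one, so its absence from these few genes says little. Weaker candidates lay in the windows of vit-2, unc-119, snb-1 and myo-2, with top signals of 21.7, 17.9, 25.2 and 15.3. The promoter of myo-3 is also part of the transgene.

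Forkhead proteins bind DNA through a winged-helix domain, and members of the FOXO branch such as DAF-16 recognise the DAF-16 binding element (DBE), TGTTTAC on one strand and GTAAACA on the other. When insulin signalling is low, DAF-16 moves into the nucleus and changes the expression of genes for metabolism, stress defence and longevity. Other forkhead proteins recognise closely related sequences. The genes examined here encode regulators of the nervous system, the gonad and the vulva, among other tissues.

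The sequences below show the DBE beside summits of fkh-7 and the surroundings of the strongest summits of fkh-9. From fkh-7 the 4 strongest summits are shown, and the summit 5598933 for the DBE within 100 bp of it. The fkh-7 summits 5591293, 5607576 and 5582480 had higher signals than 5598933 but lie in regions without a DBE and are not shown. They were read from the reference genome WBcel235, which is the assembly ce11 of the peak lists, on its plus strand from 5' to 3', and capitals mark each DBE and each GAGAGA or its complement TCTCTC. The first 5 are from fkh-7 and hold the summits 5594051, 5588498, 5604738, 5586467 and 5598933, and the last 2 are from fkh-9 and hold the summits 3818768 and 3828982.
fkh-7 peak at chrIV:5593951-5594250: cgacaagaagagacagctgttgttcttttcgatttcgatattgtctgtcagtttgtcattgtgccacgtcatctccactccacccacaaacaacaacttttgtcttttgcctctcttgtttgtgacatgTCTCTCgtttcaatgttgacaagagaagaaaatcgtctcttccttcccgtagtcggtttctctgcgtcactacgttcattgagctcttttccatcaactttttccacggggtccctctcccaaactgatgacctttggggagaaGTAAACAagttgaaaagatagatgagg
fkh-7 peak at chrIV:5588249-5588548: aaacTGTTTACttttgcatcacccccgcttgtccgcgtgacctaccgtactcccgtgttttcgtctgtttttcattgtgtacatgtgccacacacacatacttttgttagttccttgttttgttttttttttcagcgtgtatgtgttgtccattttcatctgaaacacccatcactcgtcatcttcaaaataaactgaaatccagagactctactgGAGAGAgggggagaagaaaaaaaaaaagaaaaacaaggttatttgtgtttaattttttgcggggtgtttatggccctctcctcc
fkh-7 peak at chrIV:5604638-5604838: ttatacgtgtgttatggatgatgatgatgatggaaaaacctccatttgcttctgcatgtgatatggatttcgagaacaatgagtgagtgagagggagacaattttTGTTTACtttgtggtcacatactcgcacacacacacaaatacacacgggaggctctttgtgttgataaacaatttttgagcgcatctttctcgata
fkh-7 peak at chrIV:5586347-5586567: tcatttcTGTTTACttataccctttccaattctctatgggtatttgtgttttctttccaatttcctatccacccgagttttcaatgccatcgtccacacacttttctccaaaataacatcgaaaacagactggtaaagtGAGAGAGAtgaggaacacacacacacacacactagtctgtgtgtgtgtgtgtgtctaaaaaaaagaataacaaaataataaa
fkh-7 peak at chrIV:5598833-5599033: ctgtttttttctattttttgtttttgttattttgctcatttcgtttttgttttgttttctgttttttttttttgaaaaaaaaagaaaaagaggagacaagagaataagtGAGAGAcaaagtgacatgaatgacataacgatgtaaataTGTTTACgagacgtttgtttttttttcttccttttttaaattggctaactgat
fkh-9 peak at chrX:3818668-3818868: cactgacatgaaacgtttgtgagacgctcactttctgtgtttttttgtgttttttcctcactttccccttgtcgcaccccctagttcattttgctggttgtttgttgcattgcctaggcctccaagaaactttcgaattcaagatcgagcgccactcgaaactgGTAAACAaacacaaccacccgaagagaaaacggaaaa
fkh-9 peak at chrX:3828882-3829082: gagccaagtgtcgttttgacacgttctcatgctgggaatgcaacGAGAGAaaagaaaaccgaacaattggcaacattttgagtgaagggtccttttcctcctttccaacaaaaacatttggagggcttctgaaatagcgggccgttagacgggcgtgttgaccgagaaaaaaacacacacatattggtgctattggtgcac

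In the fkh-7 stretches the DBE lay at 176, -242, 8, -110 and 51 bp from the summit (positive towards higher coordinates). The stretches around the summits 5594051, 5588498 and 5586467 were extended to reach it, so that every fkh-7 stretch shown holds one follows from how they were chosen. The first fkh-9 stretch held a DBE 67 bp from its summit, and the second held none.

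The window of fkh-7, which encodes a forkhead protein related to the mammalian FOXP family, held 14 IDR peaks, the highest number of any nuclear protein-coding gene. The next genes in that order, the neighbours icl-1 and srh-2, held 8 each in overlapping windows. The gene lies on the plus strand of chromosome IV from 5584684 to 5610378, 25695 bp, and its window spans 31195 bp. The density was 4.49 IDR summits per 10 kb, against 0.253 over the nuclear genome. By density, unlike by number, the fkh-7 window was not first but 48th among the windows of nuclear protein-coding genes. The window covers 0.178% of chromosome IV and held 3.91% of its 358 IDR peaks. When summits at most 300 bp apart were joined, the 14 became 11 regions, still the highest count.

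Most of these peaks lay inside the gene, not upstream of it. The first intron of the longest transcripts, from 5585185 to 5601649, is 16465 bp long and held 10 of the 14 summits in 8 regions. Of the other 4, 1 lay upstream of the gene, 2 in a later intron near 5604738, and 1, at 5607576, in a stretch that is exon only in a noncoding transcript of fkh-7. None lay in a coding exon. Introns held 12 of the 14 fkh-7 summits (85.7%), against 27.0% of all nuclear IDR summits. These shares are not like for like, since the first intron alone takes up 16465 of the 31195 bp of the window. The gene was also chosen for its intronic peaks, and the intronic share of its window was not counted. The distance to the nearest annotated start was taken over all transcripts of protein-coding genes, and noncoding RNA genes were not counted. Its median was 3294 bp at fkh-7, against 867.5 bp over all nuclear IDR summits, with the same limit as for the intronic shares. In every case that nearest start belonged to fkh-7 itself. The regions were spread along the gene, with gaps of 812 to 4882 bp and a median gap of 2007 bp.

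**Figure D1:**
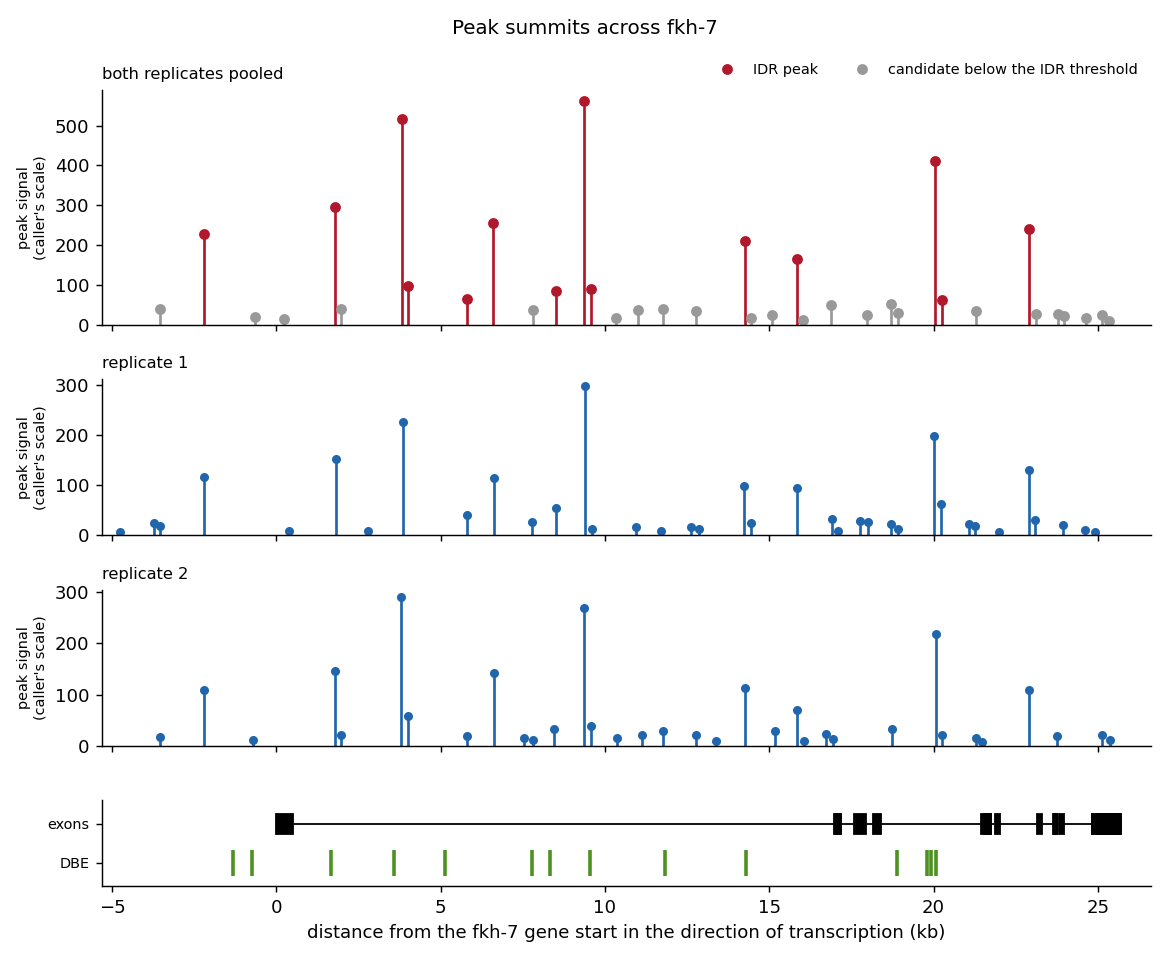
Summits in the fkh-7 window by distance from the gene start in kb (x axis) and peak signal on the caller's scale (y axes), for the pooled list and for each replicate, with the exons of coding transcripts as black boxes and each DBE as a green mark. The tallest summits, with pooled signals of 561, 518 and 410.4, recur in both replicates, and 10 of the 14 IDR summits stand over the long first intron.

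The strongest summit, at 5594051 and 9367 bp into the gene, had a pooled signal of 561 and was 13th of the 2540 nuclear IDR peaks. Its signal was 297 in replicate 1 and 269 in replicate 2. The summit at 5588498, 3814 bp into the gene, had a pooled signal of 518, with 227 in replicate 1 and 290.3 in replicate 2. Each replicate had 1 of them as its strongest fkh-7 summit, at rank 8 of the nuclear replicate 1 list and rank 15 of the nuclear replicate 2 list. The summit at 5604738, 20054 bp into the gene, had a pooled signal of 410.4, with 198.5 in replicate 1 and 218 in replicate 2. The summit at 5586467, 1783 bp into the gene, had a pooled signal of 296, with 152 in replicate 1 and 147 in replicate 2. These 4 were the fkh-7 summits within the 100 strongest nuclear IDR peaks.

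A second tier followed. The summit at 5591293 had a pooled signal of 256.5, with 115.3 in replicate 1 and 142 in replicate 2. The summit at 5607576 had a pooled signal of 239.8, with 131 in replicate 1 and 109.8 in replicate 2. These are the positions 6609 and 22892 bp into the gene. The only upstream IDR peak, at 5582480 and 2204 bp before the gene start, had a pooled signal of 226.5, with 116 in replicate 1 and 110.0 in replicate 2. It lies beside linc-50, a long intergenic RNA gene from 5582041 to 5582262, and cannot be assigned to either gene. The summit at 5598933 had a pooled signal of 209.6, with 97.9 in replicate 1 and 113.5 in replicate 2. The summit at 5600521, 1186 bp before the start of a shorter fkh-7 transcript, had a pooled signal of 165, with 94.9 in replicate 1 and 69.3 in replicate 2. Among all candidates of the replicate lists, none of these 5 summits ranked lower than 692.

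The remaining 5 summits had pooled signals of 61.8 to 97.7, and 3 of them were shoulders about 200 bp from a stronger summit. The shoulder at 5588698 (pooled signal 97.7) had a summit of its own in replicate 2, with a signal of 58.6. In replicate 1 the nearest summit was the main one, more than 100 bp away, so it was the only fkh-7 IDR peak not matched in both replicates. The shoulder at 5594258 (89.5) had 12.8 in replicate 1 and 38.0 in replicate 2. The shoulder at 5604938 (61.8) had 61.8 in replicate 1 and 21.2 in replicate 2, and was the fkh-7 peak nearest above the IDR threshold. The lowest nuclear IDR signal was 60.5, and the strongest fkh-7 candidate below it had 52.95. The summit at 5593194 (83.7) had 54.7 in replicate 1 and 33.5 in replicate 2, and that at 5590481 (63.2) had 40.8 in replicate 1 and 18.9 in replicate 2. Their ranks differed between the replicate lists: 5604938 was at rank 734 in replicate 1 and 5105 in replicate 2, and 5594258 was at rank 9324 in replicate 1 and 2092 in replicate 2.

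Below the threshold the fkh-7 window held 23 further pooled candidates, with signals of 10.3 to 52.95 and a median of 25.8. Of these 23, 7 had a summit within 100 bp in both replicates, against 22.4% of the 27437 nuclear pooled candidates that are no IDR peaks. With the IDR peaks the window held 37 candidates, 11.9 per 10 kb, against 2.99 per 10 kb over the nuclear genome. The fkh-9 window had a higher candidate density, 13.45 per 10 kb. Chromosome IV carries dense clusters of piRNA genes, which encode the small RNAs that guide the Piwi protein in the germline. The fkh-7 window held 91 of them, and 1 of the 14 IDR summits had a piRNA gene within 100 bp. None of the sequence within 100 bp of the 14 summits held a run of 31 bases that occurs again in the nuclear genome, against 11.6% of all nuclear IDR summits.

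Ordered by the summed signal of intronic IDR peaks, fkh-7 came first of 507 genes that had any, with 2812 over 12 summits. The genes just below it were ppfr-1, related to a regulatory subunit of protein phosphatase 4, with 1136 over 7 summits, and pqn-41, which encodes a glutamine-rich protein, with 990.1 over 5 summits. Those genes are as long or longer, 25884 and 33613 bp. By its strongest intronic peak alone fkh-7 was second, after Y41G9A.17 with a signal of 604. Of the 10 strongest intronic IDR peaks of the nuclear genome, 3 were in fkh-7. Likeness here means only the sum of signals in the same pooled list, from 2 replicates.

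**Figure D2:**
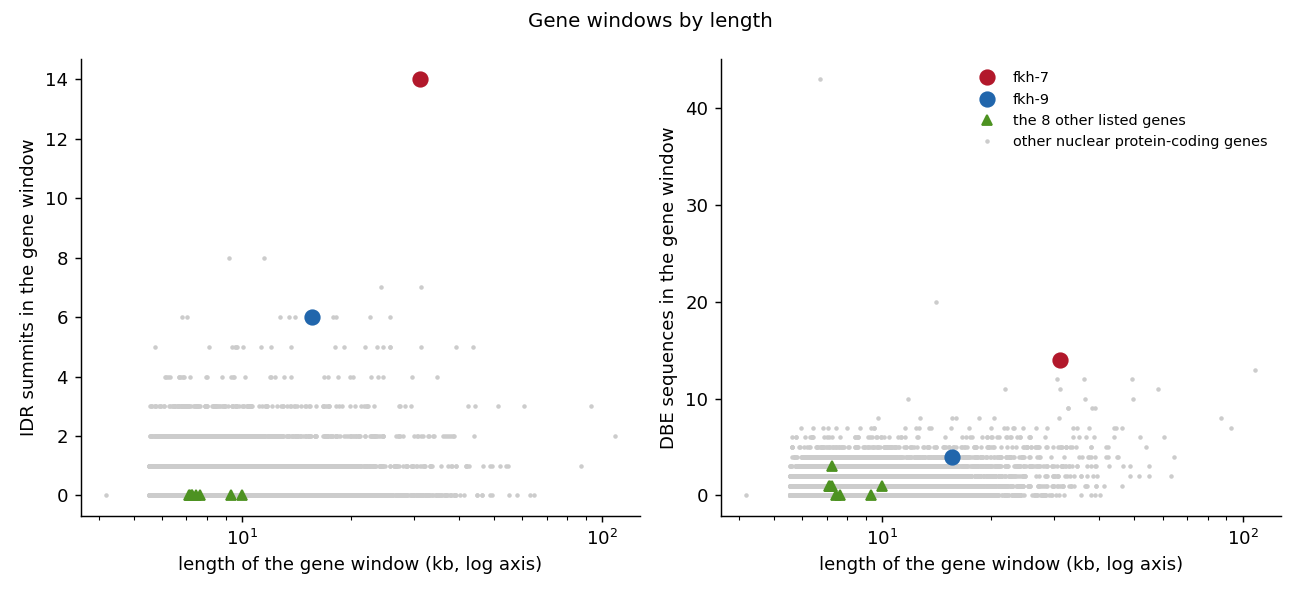
Each point is the window of 1 nuclear protein-coding gene, by length in kb on a log axis, against its number of IDR summits (left) and of DBE sequences (right). The fkh-7 window stands alone at 14 IDR summits and also holds 14 DBE sequences, fkh-9 holds 6 and 4, and the 8 other listed genes lie at 0 IDR summits.

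The sequence of the fkh-7 window was rich in the DBE. It held 14 of them, 4.49 per 10 kb, against 1.19 per 10 kb over the nuclear genome and a median of 0.872 per 10 kb in the 3995 longest gene windows (9821 bp or more). Only 3 genes, fkh-7 included, had as many, and 1.00% of those longest windows had a higher density. Of the 14, 12 were in introns and 2 upstream of the gene. The IDR regions covered 4366 of its 31195 bp and held 8 of its 14 DBE sequences. Over the nuclear genome, the IDR peaks covered 0.945% of the sequence and held 2.82% of the 11971 DBE sequences.

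Of the 11 fkh-7 regions 6 held at least 1 DBE (54.5%), against 12.8% of the 2434 nuclear regions, whose median width was similar (425 bp at fkh-7 and 436 bp overall). The region from 5604422 to 5604996 held 3 DBE sequences in the same orientation, at 247 and 143 bp before the summit and 8 bp after it. Only 2 nuclear regions held 3 or more. Close to the summits the difference was smaller: 3 of the 14 fkh-7 summits had a DBE within 100 bp (21.4%), against 228 of the 2540 nuclear IDR summits (8.98%). By their strongest summit, the 6 fkh-7 regions with a DBE had signals of 561, 518, 410.4, 296, 209.6 and 83.7. The 5 without one had 256.5, 239.8, 226.5, 165 and 63.2. The 4 strongest regions thus all held a DBE, and below them the regions with and without one overlapped. Among those 4, only the region with 410.4 had a DBE within 100 bp of its strongest summit. Another 3 DBE sequences lay within 100 bp of candidates below the threshold, with signals of 36.7, 38.5 and 29.4, while both upstream ones lay beyond 100 bp of any pooled candidate. One of these, at 5583945, was within 100 bp of a replicate 2 candidate with a signal of 11.7.

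Other sequences were also present. GAGAGA lay within 100 bp of 8 of the 14 fkh-7 summits (57.1%), against 41.3% of nuclear IDR summits. CAGCTG, an E-box of the kind that the muscle factor HLH-1 recognises, lay at 2 of the 14 (14.3%), against 10.5%. The DAF-16 associated element CTTATCA lay at 1 (7.14%), against 3.78%, and the GATA sequence TGATAA at 3 (21.4%), against 15.1%. With 14 summits each of these shares moves by several percentage points for 1 peak. The base composition of the 14 stretches, a median of 39.6% G and C with a range of 25.9% to 51.2%, was near the median of 42.8% over all nuclear IDR summits. Each sequence was searched on both strands, and GAGAGA overlaps itself in longer repeats.

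The window of fkh-9, on the minus strand of chromosome X from 3816847 to 3826963, held 6 IDR peaks. In neurons, fkh-9 is known as a DAF-16 target needed for axon regeneration and memory. With 15617 bp the window is among the 3995 longest, of which 0.300% held 6 or more IDR peaks. Of the 6, 3 lay upstream of the gene, 2 in its first intron and 1 near its end. An annotated transcript start of a protein-coding gene lay within 1000 bp of 4 of these 6. That held for 1 of the 14 at fkh-7 and for 53.6% of all nuclear IDR summits. Starts of noncoding RNA genes, such as linc-50 beside the upstream fkh-7 summit, were not counted. The pooled signals of the 6 fkh-9 summits were lower, with a median of 97.2, against 218 at fkh-7.

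The strongest fkh-9 peak, at 3818768 and 8195 bp into the gene, had a pooled signal of 174, with 82.4 in replicate 1 and 90.95 in replicate 2. It lay in a stretch that is noncoding exon in some transcripts and intron in others, 280 bp upstream of the start of a short transcript. It was the only fkh-9 summit with a DBE within 100 bp. The summit at 3828982, 2019 bp upstream of the gene, had a pooled signal of 141, with 55.5 in replicate 1 and 88.2 in replicate 2. The intronic summits at 3821356 and 3826382 had pooled signals of 97.9 and 65.7. In replicate 1 they had 50.4 and 25.6, and in replicate 2 they had 42.0 and 41.4. The summit at 3827017, 54 bp upstream of the annotated start, had a pooled signal of 76.55, with 38.4 in replicate 1 and 37.1 in replicate 2. The summit at 3830908 had a pooled signal of 96.6 and a match 80 bp away in replicate 2 (69.9). The nearest replicate 1 summit (38.2) was more than 100 bp away, so this was the only fkh-9 IDR peak not matched in both.

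**Figure D3:**
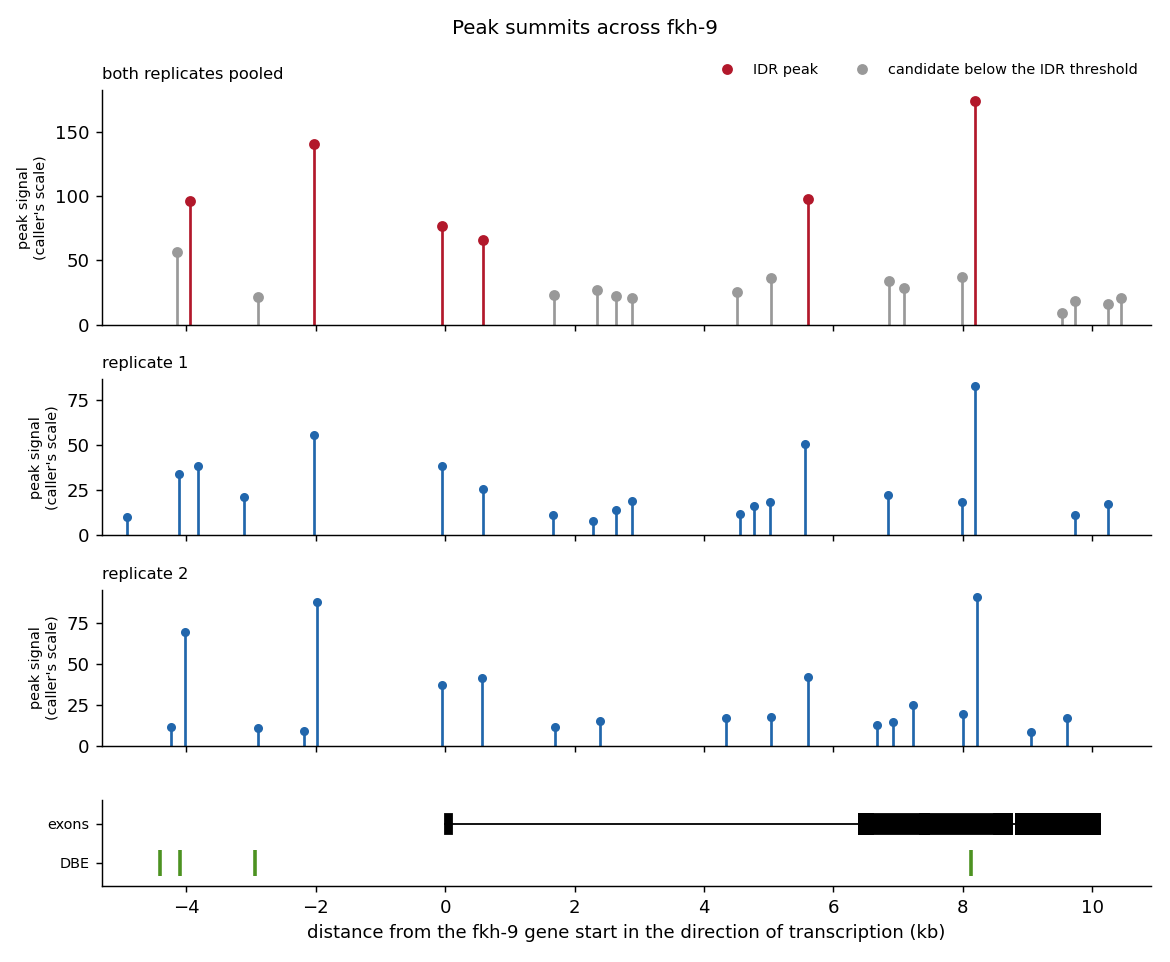
Summits in the fkh-9 window by distance from the gene start in kb (x axis) and peak signal on the caller's scale (y axes), for the pooled list and for each replicate, with the exons of coding transcripts as black boxes and each DBE as a green mark. The 2 tallest pooled summits, 174 near the gene's end and 141 upstream of it, are also the tallest of both replicates.

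Just outside the threshold, a candidate at 3831110 had a pooled signal of 56.8, with 33.7 in replicate 1 and 11.4 in replicate 2. It was the strongest candidate of any listed gene that was not an IDR peak, and it held a DBE within 100 bp. A further 14 candidates of fkh-9 lay between 9.43 and 37.5. Of the 4 DBE sequences in this window, 3 lay within 100 bp of some candidate. One summit of the 6, at 3821356, held 31-base sequences that occur again in the genome.

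Across both genes, 18 of the 20 IDR summits had a summit within 100 bp in both replicates, against 95.0% of nuclear IDR summits. Over these 18, Spearman's rho between the replicate signals was 0.876, which describes peaks of the same 2 libraries. Since IDR peaks were called from these replicates, agreement between them is partly built in.

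**Figure D4:**
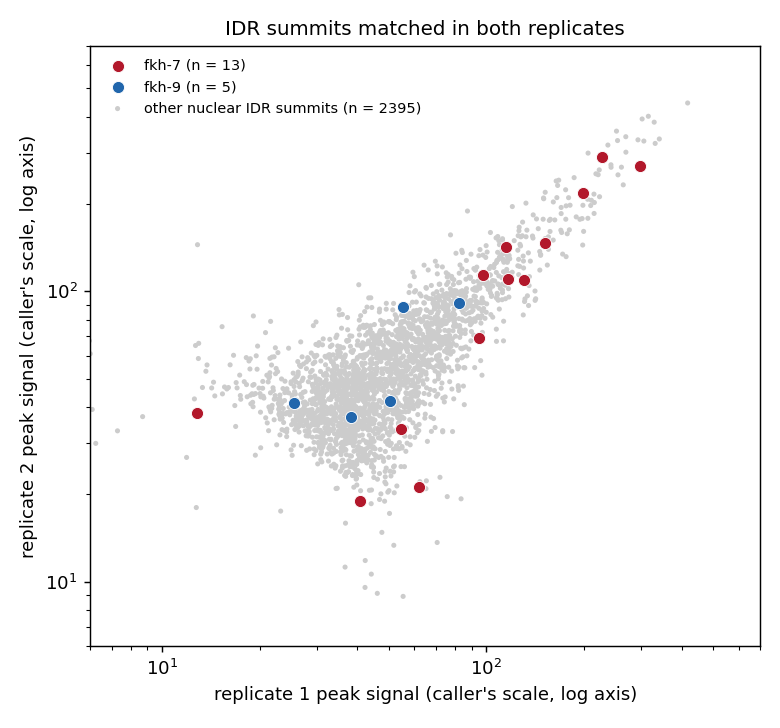
Signal in replicate 1 (x axis) and replicate 2 (y axis), both on the caller's scale and log axes, of IDR summits matched in both. The fkh-7 summits (n = 13, red) include some of the highest values of each replicate, up to 297 in replicate 1 and 290.3 in replicate 2.

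None of the other 8 listed genes had an IDR peak. In all, 2 of the 10 genes had one, while 17.5% of all nuclear protein-coding genes did, so the share of the list was near the background. Window length differed: those of fkh-7, fkh-9 and lin-31 are among the 3995 longest, of which 25.8% had an IDR peak. The 8 genes without one have windows of 7119 to 9981 bp, and 15.5% of genes with windows under 10000 bp had one. A pooled candidate of any strength was present for 9 of the 10 genes, against 63.3% of all genes. The 8 windows without an IDR peak held 9 candidates with signals of 9.48 to 25.1. Their candidate densities were 0 to 2.79 per 10 kb, each below the 2.99 over the nuclear genome. A summit within 100 bp in both replicates was present for 1 of the 9, against 22.4% of all nuclear pooled candidates that are no IDR peaks.

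That candidate belonged to fkh-5, at III 4846602, with a pooled signal of 25.1, and 12.3 in replicate 1 and 9.57 in replicate 2. It lies at the shared end of fkh-5 and nonu-1 and cannot be assigned to either gene. The single candidate of fkh-2, which acts with pes-1 in the embryo and shapes sensory cilia, had a pooled signal of 16.1 in an intron, and no summit within 100 bp in either replicate. The candidate of fkh-6, a regulator of gonad development, lay 2 bp upstream of its start with a pooled signal of 13.3. It is also inside an intron of B0286.1 on the other strand, and had a match in replicate 2 (9.97) only.

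For fkh-8, which acts in ciliated sensory neurons, the only candidate had a pooled signal of 10.6, nearest to the start of the neighbouring gene cpb-2. The fkh-3 window held 1 candidate of 10.5, nearest to the start of C29F7.3, and the fkh-4 window 2 of 10.99 and 13.6, both nearest to the start of C29F7.10. Neither these 3 nor the fkh-8 candidate had a match in either replicate. The fkh-10 window held a candidate of 9.48 in its own intron, matched in replicate 2 only, and 1 of 13.7 in an exon of the neighbouring gene sup-46, matched in neither. The window of lin-31, which controls the fates of vulval precursor cells downstream of MAP kinase, held no pooled candidate. Replicate 2 alone listed weak candidates there, the stronger with a signal of 9.14.

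**Figure D5:**
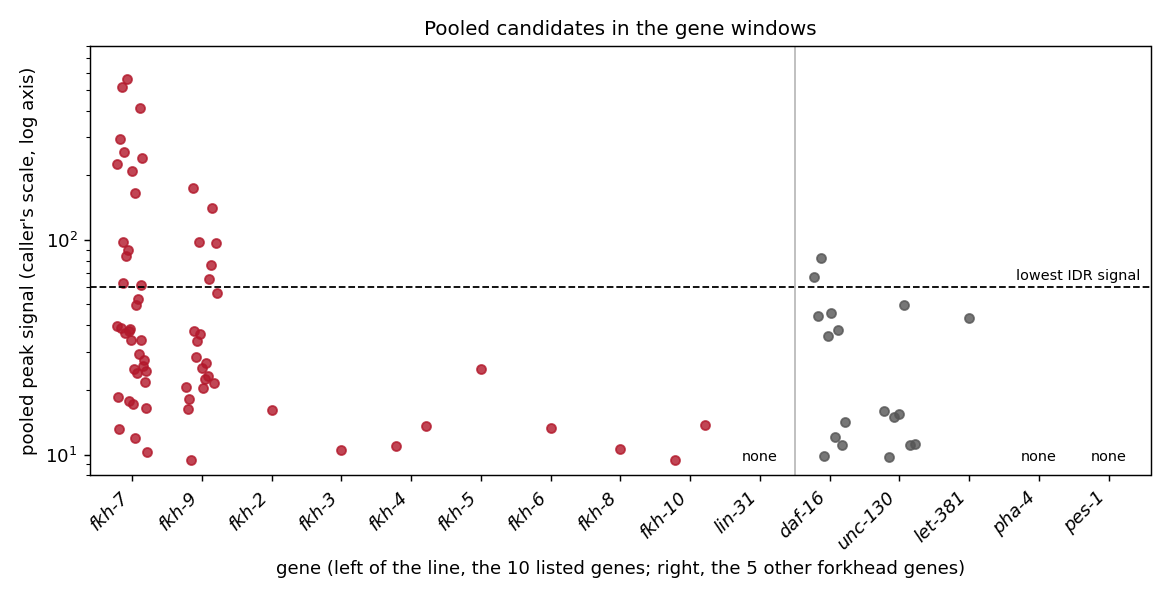
Pooled signal on the caller's scale (log axis) of every candidate in the windows of the 10 listed genes (red) and of the 5 other forkhead genes (grey), with the lowest nuclear IDR signal, 60.5, as a dashed line. Only fkh-7, fkh-9 and daf-16 reach the line, and the 8 other listed genes stay at or under 25.1.

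The windows of the 8 genes without an IDR peak held 7 DBE sequences, in lengths that sum to 63157 bp. There were 3 in the fkh-8 window, 4.13 per 10 kb, against 4.49 at fkh-7 and 1.19 over the nuclear genome. The windows of fkh-3, fkh-4, fkh-10 and lin-31 held 1 each, 1.00 to 1.41 per 10 kb. Those of fkh-2, fkh-5 and fkh-6 held none. None of the 7 lay within 100 bp of a candidate. Over the whole list, 25 DBE sequences were found, of which 4 lay within 100 bp of an IDR summit and 9 within 100 bp of any candidate. In the nuclear genome 2.01% of DBE sequences lay that close to an IDR summit and 7.74% to a candidate. All those of the list lay in the fkh-7 and fkh-9 windows, which held 4.49 and 3.84 IDR summits per 10 kb, against 0.253 genome-wide. Where summits are this dense more DBE sequences lie near one whatever their role, so the shares are not like for like.

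To compare them, the 4 DBE sequences near IDR summits and 6 of the 7 in windows without an IDR peak are shown with 12 bases on each side, read in the direction of TGTTTAC, which is in capitals. The fkh-10 site and the other sites of the fkh-7 and fkh-9 windows are not shown. The 4 within 100 bp of an IDR summit were these.
fkh-7 DBE at chrIV:5604743-5604749, plus strand: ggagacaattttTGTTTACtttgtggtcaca
fkh-7 DBE at chrIV:5594224-5594230, minus strand: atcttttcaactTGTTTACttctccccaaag
fkh-7 DBE at chrIV:5598981-5598987, plus strand: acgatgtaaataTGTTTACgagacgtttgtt
fkh-9 DBE at chrX:3818832-3818838, minus strand: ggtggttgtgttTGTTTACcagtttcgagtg

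The 6 in the windows of fkh-8, lin-31, fkh-3 and fkh-4, none of them near a candidate, were these.
fkh-8 DBE at chrII:6189580-6189586, minus strand: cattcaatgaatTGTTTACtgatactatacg
fkh-8 DBE at chrII:6189597-6189603, plus strand: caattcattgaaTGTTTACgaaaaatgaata
fkh-8 DBE at chrII:6193532-6193538, plus strand: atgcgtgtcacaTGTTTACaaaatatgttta
lin-31 DBE at chrII:3978281-3978287, minus strand: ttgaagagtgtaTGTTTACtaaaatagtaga
fkh-3 DBE at chrX:13426321-13426327, plus strand: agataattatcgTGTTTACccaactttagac
fkh-4 DBE at chrX:13430599-13430605, minus strand: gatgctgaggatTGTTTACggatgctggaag

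The base before the element was T, giving the longer form TTGTTTAC, in 3 of the 4 near IDR summits and in 8 of the other 21 of the list. Over the nuclear genome the longer form made up 41.5% of the 241 DBE sequences near IDR summits and 37.3% of all. The first pair of fkh-8 lies downstream of the gene, 17 bp apart on opposite strands, with no candidate within 100 bp.

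Of the 5 forkhead genes outside the list, 1 had an IDR peak. This was daf-16 itself, with an upstream summit of pooled signal 67.0 (38.4 in replicate 1 and 27.1 in replicate 2) and an intronic summit of 82.3 (27.9 in replicate 1 and 54.2 in replicate 2). Neither had a DBE within 100 bp. The fkh-7 window held 14 IDR peaks and 14 DBE sequences in 31195 bp, against 2 and 3 in the 31706 bp of the daf-16 window. The strain carries the mu86 allele of this gene and a daf-16a transgene. Counts in the daf-16 window may therefore not be comparable with those in the fkh-7 window. Below the threshold, unc-130, which acts in cell migration and neuronal fate, had a top candidate of 49.5 (29.5 in replicate 1 and 17.8 in replicate 2). The mesodermal factor let-381 had a candidate of 43.25 (18.1 in replicate 1 and 10.3 in replicate 2). The windows of pha-4, the organ identity factor of the pharynx, and of pes-1 held no pooled candidate.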

How the data were processed

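The deposited ce11 peak lists were used: those of the 2 biological replicates, that of the pooled replicates, and that of peaks past the IDR threshold. The deposited file lists derive them from alignments and a control library. Not given in the sources used here are the aligner, the peak caller and the value of the IDR threshold. The signal deposited by the authors for each peak was used only to describe and rank peaks within a list, and the deposited summit offset gave positions. The ce10 lists were not used. All nuclear peaks lay within the chromosome lengths of WBcel235, the assembly that ce11 names. Genes came from Ensembl release 115, and coordinates are 1-based.

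Summits of different lists were matched within 100 bp. Both strands were searched for motifs up to 100 bp from a summit, or within the whole deposited peak for joined regions. The counting, joining and motif steps were tested on simulated data. Python 3.11.15, pandas 2.3.3 and scipy 1.17.1 were used. No test was made, since the members were chosen on these peaks and there is 1 group. The members and lists were chosen with earlier results of these data known. The named genes were the members, 5 other forkhead genes, the genes next to fkh-7 in the intronic order and those nearest to the summits. Genes next to fkh-7 in the count of IDR peaks were named after their values were seen. Alternatives were other windows, summit distances, motif windows and stricter peak sets, and leaving out either replicate, where the 2563 highest-ranked candidates of the remaining one stood in for the IDR list. Joining summits, and the repeat of the DBE count without each replicate, were added after seeing the data.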

Additional observations from a re-analysis of the deposited data

How the results depend on the processing

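The number of members with an IDR peak was 2 in every alternative tried. The fkh-7 window held 10 to 14 IDR summits and the member windows together 14 to 20. Without replicate 1 and without replicate 2, the fkh-7 window held 13 and 14, and the member windows together 19 and 20. The density at fkh-7 was 5.06 per 10 kb in the gene body alone, 3.21 for IDR peaks of at least the median signal, 4.17 for those matched in both replicates and 3.53 with summits joined. It was 4.17 to 4.49 with a replicate left out, against 4.49 as reported. The place of fkh-7 by intronic signal was 1 under each alternative except the strongest intronic peak alone, where it was 2. The count of member IDR summits with a DBE, 4 as reported, depended on the search window. It was 2 within 50 bp, 9 within 200 bp and 11 of 20 (55.0%) within the deposited peak. Of all nuclear IDR peaks, 12.8% held a DBE within the deposited peak, and the shares for 50 and 200 bp were not counted. Some neighbouring summits share a deposited peak and so the same DBE. Joined into regions, 6 of 11 at fkh-7 and 2 of 6 at fkh-9 held one. The count within 100 bp was 4 to 5 with a replicate left out. With the core form TGTTTA it was 6 of 20 (30.0%), against 21.3% of all nuclear IDR summits. Summits matched in both replicates were 18 to 20 of 20. The lists hold no read counts, so the effect of depth could not be measured. No paired analysis was possible because there is 1 group.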
